A study of Mus musculus with 8 samples.

Results

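The M-band is the line at the middle of the sarcomere, where the thick filaments are tied together, and 9 genes of the proteins that sit there or along the thick filament were followed in E18.5 mouse hearts: the myomesins *Myom1*, *Myom2* and *Myom3*, the cytoskeletal linker gene *Obsl1*, the myosin-binding protein genes *Mybpc3* and *Mybphl*, and the muscle RING finger (MuRF) ubiquitin ligases *Trim63* (MuRF1), *Trim55* (MuRF2) and *Trim54* (MuRF3). They were chosen by name. Every array probe whose RefSeq accession belongs to 1 of them was kept, which gave 10 probes out of 41174, *Obsl1* having 2 and each other gene 1. The 8 hearts came from 4 wild-type (WT) embryos and from 4 embryos labelled SIRT1 KO, a germ-line knockout in the whole body of SIRT1, an NAD-dependent protein deacetylase. All embryos were on the C57BL/6 background per the labels (C57BL/6J in the methods), at E18.5, untreated, from mothers on chow, and the study bred heterozygous parents and took hearts of both sexes. Each heart was hybridized alone to a one-color Agilent array, and a whole heart holds atria, ventricles, vessels and blood together. In such tissue, fewer cells of a type and less RNA per cell cannot be told apart, and the deletion was carried by every tissue of the embryo and not by the heart alone.

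Myomesins cross-link neighboring myosin filaments and bind titin, the elastic protein that runs from the Z-disc to the M-band. *Obsl1* protein links titin to the myomesins, and it is also a subunit of the 3M complex, which takes part in protein degradation. Myosin-binding protein C stripes the thick filament on both sides of the M-band and tunes how myosin meets actin, whereas *Mybphl* encodes a shorter relative best known from the atria. The MuRF proteins bind titin near the M-band and mark muscle proteins for degradation, and *Trim63* is widely used as a marker of muscle atrophy. Forkhead box O factors, which SIRT1 can deacetylate, are known to drive *Trim63* in wasting muscle.

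The MuRF genes are the members whose start sites bear most on this background. RefSeq promoters (GRCm38.p6) were matched for 7 of the 9 members, not for *Myom2* and *Trim55*. The 250 bases before the start of *Trim63* (chr4:134314870-134315119, plus strand) and of *Trim54* (chr5:31116362-31116611, plus strand) are printed 5′ to 3′. Capitals mark matches on either strand to 3 motifs: GTAAACA, the core bound by forkhead factors, CATTCC, the core bound by TEAD factors, and TATAAA, the TATA box.
Trim63: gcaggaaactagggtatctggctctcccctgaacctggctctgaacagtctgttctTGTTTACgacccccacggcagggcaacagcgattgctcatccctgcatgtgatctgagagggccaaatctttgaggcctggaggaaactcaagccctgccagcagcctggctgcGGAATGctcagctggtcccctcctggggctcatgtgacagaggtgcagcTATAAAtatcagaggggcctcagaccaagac
Trim54: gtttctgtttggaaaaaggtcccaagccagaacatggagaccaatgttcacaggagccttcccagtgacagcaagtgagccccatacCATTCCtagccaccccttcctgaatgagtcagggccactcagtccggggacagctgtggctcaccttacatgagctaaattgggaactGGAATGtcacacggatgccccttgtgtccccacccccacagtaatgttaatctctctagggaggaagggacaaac
In *Trim63* the forkhead core lies on the minus strand with its match beginning 194 bases before the start, the TEAD core on the minus strand at 80 bases, and the TATA box at 31 bases. *Trim54* has TEAD cores at 163 bases on the plus strand and at 75 bases on the minus strand. The other 5 windows hold none of these letters. Over 32851 RefSeq promoters the same window held GTAAACA in 3.17%, CATTCC in 12.6% and TATAAA in 12.4%, so that the last 2 are common. These matches describe letters and not bound sites.

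Signals are given as log2 intensity minus the 75th percentile of the same array, so a value of 0 is as bright as that percentile, and the level of one probe is not set against that of another. All 10 member probes were well above background on all 8 arrays and entered the test, in which 25624 probes were compared with limma at a Benjamini-Hochberg adjusted p of 0.05. Each genotype was run on a slide of its own, scanned on its own day, so for every value here the effects of genotype, slide and day of scanning cannot be told apart. An array had 24497 to 26747 probes above background, no spot was saturated, and the number of arrays limits the precision. *Sirt1* itself was no guide to the labels: its brighter probe was higher in the hearts labelled SIRT1 KO by a log2 fold change of 0.54 (limma adjusted p = 0.0323), and the second differed by -0.11 (limma adjusted p = 0.589). Where these probes lie in the transcript is not analysed here, and SIRT1 KO means the hearts with that label throughout. All 8 cardiomyocyte markers were well above background in every heart. None passed the threshold with limma or with the methods' analysis of variance (1 at an unadjusted p under 0.05 with each), with a median log2 fold change of 0.07.

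Of the 10 member probes, 1 passed the threshold, that of *Trim55*, which was higher in the SIRT1 KO hearts. Over all tested probes, 4.91% passed in either direction and 3.98% were higher, and a single call among 10 probes is not a result about the members as a group. At an unadjusted p under 0.05 there were 3 member probes (*Trim55*, *Myom2* and *Mybphl*) against 21.5% of all probes, and the genotypes did not overlap for 2 (*Trim55* and *Myom2*, both higher) against 13.8% of all probes, 8.65% higher and 5.11% lower. The fitted change was above 0 for 7 probes and below 0 for 3, with a median log2 fold change of 0.07 against 0.01 over all tested probes. That split rested on the scaling, since *Myom1* and *Trim63* turned below 0 with median scaling, which moved the median of all probes to -0.12, and *Myom1*, *Trim63* and *Mybpc3* did so without scaling, which moved it to -0.21. These scalings lower every member probe by the same amount, so the dimmer *Obsl1* probe, at 0.02, falls below 0 as well. Counted by gene on its brightest probe, 6 of 9 were above 0, against 4 with median scaling and 3 without scaling.

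**Figure D1:**
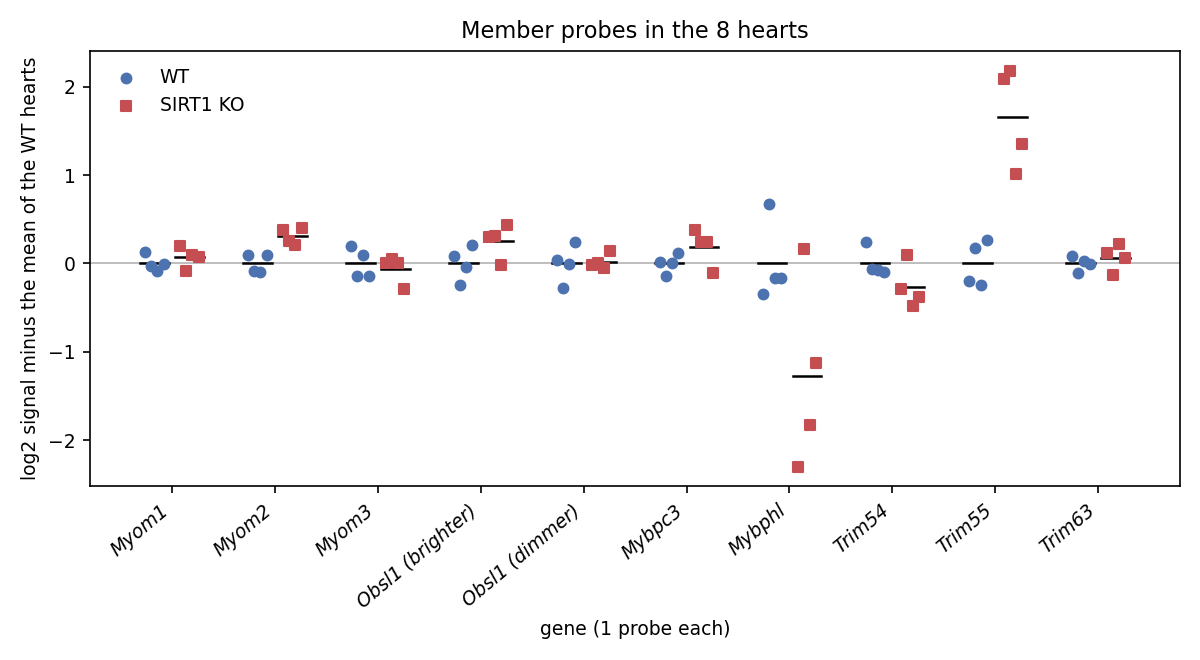
Log2 signal of the 10 member probes in each of the 4 WT hearts (circles) and 4 SIRT1 KO hearts (squares), with the mean of the WT hearts set to 0 and bars at the genotype means. The *Trim55* squares lie 1.01 to 2.18 above the WT mean, the *Mybphl* squares spread over 2.46, and the other probes stay within 0.5 of their WT mean in every heart.

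*Trim55* showed the clearest difference between the genotypes. Its log2 signal was 1.27, 1.65, 1.23 and 1.74 in WT replicates 1 to 4 and 3.56, 3.66, 2.48 and 2.82 in SIRT1 KO replicates 1 to 4. All 4 SIRT1 KO hearts were above all 4 WT hearts, with a gap of 0.74 between the nearest hearts, and the SIRT1 KO hearts fell into a brighter pair (replicates 1 and 2) and a dimmer pair (replicates 3 and 4). The log2 fold change was 1.66 (standard error 0.26, 95% confidence interval 1.06 to 2.25, limma adjusted p = 0.00894), a 3.15-fold rise with an interval of 2.09 to 4.75. The exact two-sided permutation test gave p = 0.0286, the lowest value open to 4 hearts against 4. Only 69 of the 25624 tested probes had a larger fitted rise. *Trim55* kept its call with any 1 heart left out, at log2 fold changes of 1.48 to 1.87, and lost it with the methods' analysis of variance (adjusted p = 0.0622, against 0.00128 to 0.0622 over all alternatives).

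The pattern of the *Trim55* probe over the 8 arrays was shared by probes of genes from other families. The closest gene among 13537 was *Pdpk1*, a kinase that activates Akt, with a Pearson r of 0.999 over the 8 arrays, and the next was *Tgm5*, a transglutaminase of the skin, with 0.997. Both genotypes contribute to these correlations, yet with each genotype's mean removed the *Pdpk1* probe still ran with *Trim55* at r = 0.997 and the *Tgm5* probe at 0.983. The *Pdpk1* probe read 1.79, 2.06, 1.69 and 2.13 in the WT hearts and 3.85, 3.89, 2.87 and 3.22 in the SIRT1 KO hearts, so it rose and fell between hearts as *Trim55* did. Its log2 fold change was 1.54 (adjusted p = 0.00728 from limma). The other probes of *Pdpk1*, which number 2, differed between the genotypes by 0.10 (adjusted p = 0.55 from limma) and 0.03 (adjusted p = 0.846 from limma).

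**Figure D2:**
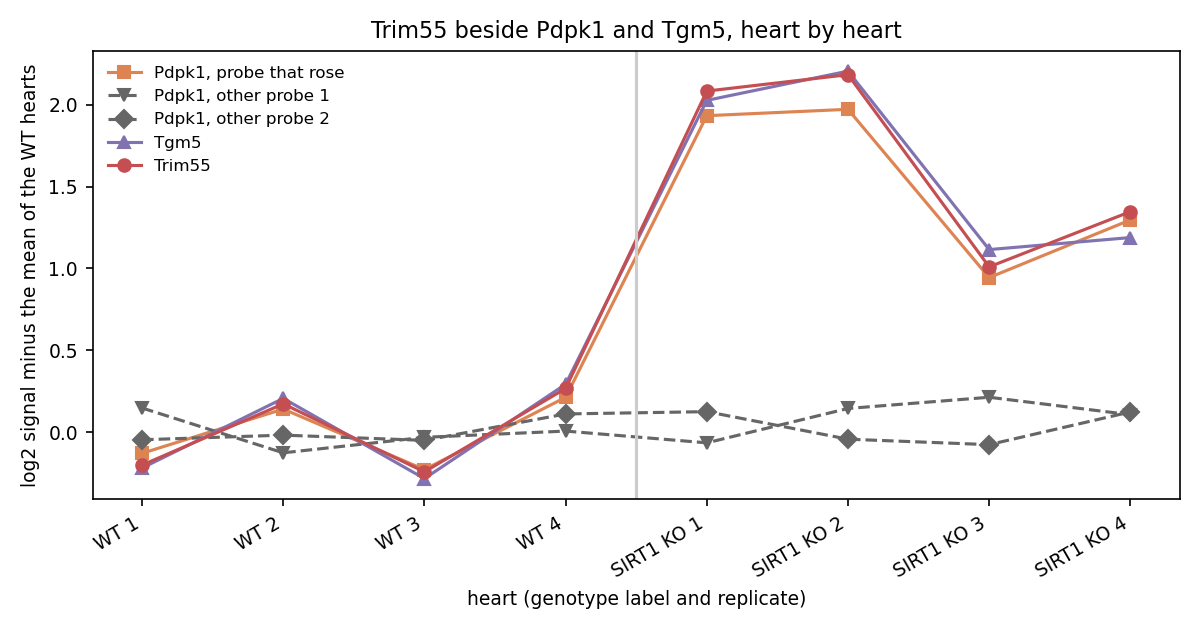
Log2 signal, with the mean of the WT hearts set to 0, of the *Trim55* probe, the *Tgm5* probe and the 3 *Pdpk1* probes in each of the 8 hearts. The lines of *Trim55*, *Tgm5* and 1 *Pdpk1* probe run together through every heart, and those of the other *Pdpk1* probes stay near 0.

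In all, 19 tested probes ran with *Trim55* at r above 0.98, a limit set after the values were seen, against 0 to 6 for the other member probes. These correlations include the difference between the genotypes. With each genotype's mean removed, 9 probes lay above that limit for *Trim55* and 9 and 8 for the *Obsl1* probes, so *Trim55* did not stand apart from the other members by this count, and 5 of the 19 lay above it both ways. All 19 passed the threshold (log2 fold change 0.41 to 1.82), which a choice by r over both genotypes favors, and they name 10 genes. For 4 of these genes (*Pdpk1*, *Myo1e*, *Lifr* and *Ttpal*) the array has 9 other tested probes, with log2 fold changes of -0.26 to 0.30. None of the 9 passed with limma or with the methods' analysis of variance, and 1 had an unadjusted p under 0.05 with each. Over all tested probes 4.91% passed with limma, so no call among 9 probes is close to that share. *Trim55* has no other probe, so its rise stands on 1 probe. The sequences of these probes are not analysed here, so whether the signal of this probe is *Trim55* transcript alone was not tested, and the 3.15-fold rise is that of the probe.

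The other MuRF genes did not pass the threshold. *Trim54* read 1.86, 1.56, 1.55 and 1.53 in the WT hearts and 1.34, 1.72, 1.15 and 1.25 in the SIRT1 KO hearts, so that 3 SIRT1 KO hearts lay below all WT hearts and replicate 2 lay among them. The log2 fold change was -0.26 (standard error 0.13, 95% confidence interval -0.57 to 0.04, limma adjusted p = 0.295, exact two-sided permutation test p = 0.114). *Trim63* read 4.36, 4.17, 4.30 and 4.27 in the WT hearts and 4.39, 4.14, 4.49 and 4.34 in the SIRT1 KO hearts. In the SIRT1 KO hearts 2 values lay above all WT hearts, 1 below all of them and 1 among them, with a log2 fold change of 0.07 (95% confidence interval -0.14 to 0.27, limma adjusted p = 0.714), and on the linear scale the interval reached from 0.909 to 1.21 of the WT level.

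Other muscle ubiquitin ligases and regulators of the MuRF genes gave no call. Of 11 listed genes, 9 had a probe and 7 were tested, among them *Fbxo32* (atrogin-1, the other classic atrophy ligase), *Klf15* and *Foxo1*. None passed with limma or with the methods' analysis of variance, and none had an unadjusted p under 0.05 with either. Their median log2 fold change was 0.01, with 4 fitted above 0 and 3 below. The smallest p-values belonged to *Stub1*, a chaperone-linked ligase, with -0.19 (adjusted p = 0.257 from limma), and *Asb2*, which targets filamins, with 0.16 (adjusted p = 0.352 from limma). *Foxo3* was well above background on only 2 arrays and *Foxo4* on none, so of the listed forkhead genes only *Foxo1* was tested.

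Among the myomesins, *Myom2*, the isoform of the adult heart and of fast muscle, was higher in the SIRT1 KO hearts than in the WT hearts by a small margin. It read 7.50, 7.32, 7.31 and 7.50 in the WT hearts and 7.78, 7.66, 7.62 and 7.80 in the SIRT1 KO hearts. The genotypes did not overlap, and the nearest hearts were 0.12 apart. The log2 fold change was 0.31 (standard error 0.08, 95% confidence interval 0.12 to 0.50, exact two-sided permutation test p = 0.0286), or 1.24 ± 0.04 (SEM, n = 4) of the WT mean on the linear scale. It missed the threshold with limma (adjusted p = 0.0688). It passed with an intensity trend (adjusted p = 0.0388) and with array weights (adjusted p = 0.0397), against 0.0388 to 0.526 over all alternatives, and the log2 fold change shrank to 0.18 with median scaling and to 0.09 without scaling.

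*Myom1*, the myomesin of all striated muscle, read 4.65, 4.49, 4.44 and 4.52 in the WT hearts and 4.73, 4.44, 4.62 and 4.60 in the SIRT1 KO hearts, and the genotypes overlapped. Its log2 fold change was 0.07 (95% confidence interval -0.12 to 0.26, adjusted p = 0.655 from limma). *Myom3*, the isoform of intermediate-speed skeletal fibers, read -1.78, -2.12, -1.88 and -2.12 in the WT hearts and -1.97, -1.93, -1.97 and -2.27 in the SIRT1 KO hearts. Its log2 fold change of -0.06 (95% confidence interval -0.31 to 0.19, adjusted p = 0.798 from limma) was smaller than the spread within either genotype (SD 0.17 in WT and 0.16 in SIRT1 KO, n = 4 each).

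*Obsl1* was measured by a brighter and a dimmer probe, and neither passed the threshold. The brighter probe read 4.49, 4.16, 4.37 and 4.61 in the WT hearts and 4.71, 4.72, 4.39 and 4.84 in the SIRT1 KO hearts, so that 3 SIRT1 KO hearts were above all WT hearts. Its log2 fold change was 0.26 (95% confidence interval -0.03 to 0.54, adjusted p = 0.282 from limma). The dimmer probe read -0.75, -1.06, -0.79 and -0.54 in the WT hearts and -0.81, -0.78, -0.84 and -0.64 in the SIRT1 KO hearts, all 4 of them inside the WT range. Its log2 fold change was 0.02 (95% confidence interval -0.23 to 0.27, adjusted p = 0.942 from limma). The mean of both probes differed by 0.14 (adjusted p = 0.529 from limma), and the difference between the probes was not tested. All other alternatives were run on the brighter probe, whose adjusted p from limma ranged from 0.105 to 0.869. Of the other 3M complex genes, *Cul7* differed by 0.19 (adjusted p = 0.267 from limma) and *Fbxw8* by -0.05 (adjusted p = 0.801 from limma), and no probe was matched to *Ccdc8*.

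The genes whose proteins meet the myomesins and *Obsl1* gave no call. Of 12 listed partners at the M-band or the end of titin, all were tested and none passed with limma or with the methods' analysis of variance, with 2 at an unadjusted p under 0.05 with each. Their median log2 fold change was 0.08, with 7 fitted above 0 and 5 below. The smallest p-values were those of titin (*Ttn*), with 0.47 (adjusted p = 0.137 from limma), and *Speg*, a muscle kinase, with 0.20 (adjusted p = 0.178 from limma) and no overlap between the genotypes. *Ttn* has 8 probes, all higher in SIRT1 KO hearts by 0.27 to 0.52. None passed with limma or the methods' analysis of variance, and 5 and 2 of them respectively had an unadjusted p under 0.05.

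*Mybphl* had the widest spread of the members. It read 0.67, 1.69, 0.85 and 0.85 in the WT hearts and -1.28, 1.18, -0.81 and -0.12 in the SIRT1 KO hearts. SIRT1 KO replicates 1, 3 and 4 were below all WT hearts, and SIRT1 KO replicate 2 was higher than 3 of the 4 WT hearts. The SD was 0.46 in the WT hearts and 1.07 in the SIRT1 KO hearts (n = 4 each). The log2 fold change was -1.27 (standard error 0.48, 95% confidence interval -2.36 to -0.19, exact two-sided permutation test p = 0.114), and it missed the threshold (adjusted p = 0.171 from limma). Without SIRT1 KO replicate 2 it was -1.75 and passed (adjusted p = 0.0272 from limma, against 0.0272 to 0.335 over all alternatives). Only 33 tested probes had a larger fitted fall.

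Atrial markers shared with *Mybphl* a peak in replicate 2 of either genotype. All 7 of them (*Nppa*, *Sln*, *Bmp10*, *Myl4*, *Myl7*, *Stard10* and *Dkk3*) were highest in replicate 2 in the WT hearts and in replicate 2 in the SIRT1 KO hearts, as *Mybphl* was, and 4 of the 7 were lowest among the SIRT1 KO hearts in replicate 1. *Sln*, the atrial inhibitor of the calcium pump, came closest in size, with 5.33, 6.48, 5.55 and 5.44 in the WT hearts and 3.86, 6.09, 4.85 and 5.16 in the SIRT1 KO hearts (log2 fold change -0.71, adjusted p = 0.384 from limma). None of the 7 passed with limma or with the methods' analysis of variance, none had an unadjusted p under 0.05 with either, and 6 of 7 were fitted below 0 (range -0.71 to 0.23, median -0.24). Their summed linear signal, in units of each array's 75th percentile, was 470 to 712 in the WT hearts and 327 to 700 in the SIRT1 KO hearts. The part of the atrial share in the *Mybphl* values was not tested.

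**Figure D3:**
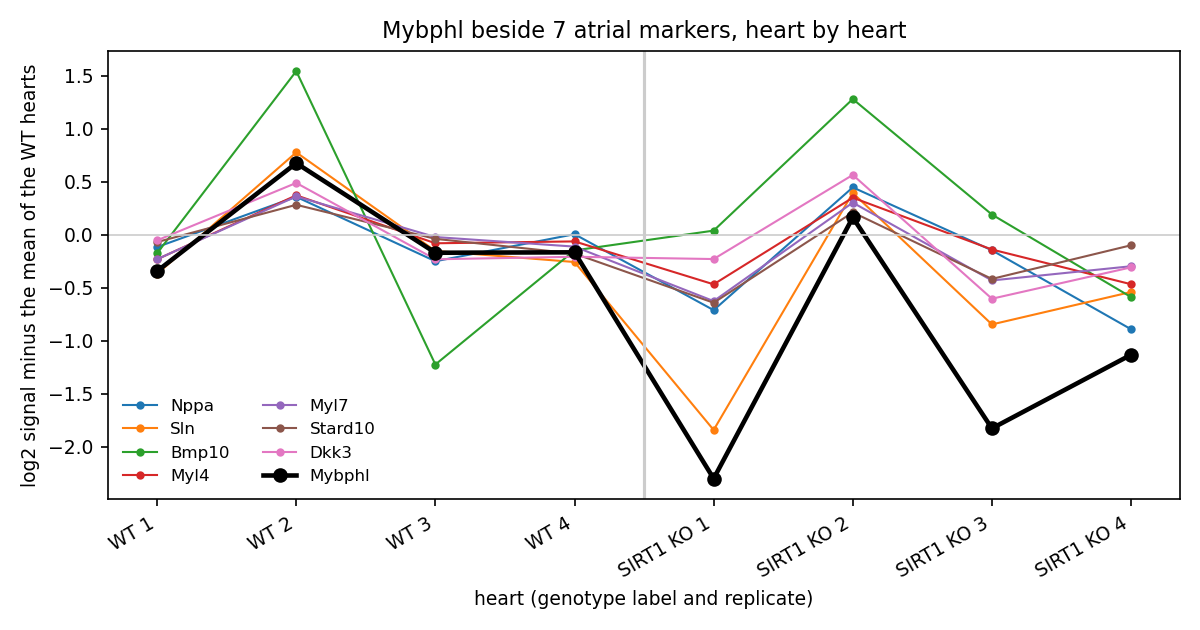
Log2 signal of *Mybphl* (thick line) and of 7 atrial markers in each of the 8 hearts, with the mean of the WT hearts set to 0. All 8 genes peak in replicate 2 of either genotype, and *Mybphl* lies lowest of the 8 in SIRT1 KO replicates 1, 3 and 4.

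*Mybpc3*, the cardiac myosin-binding protein C and a frequent site of mutations in hypertrophic cardiomyopathy, did not pass the threshold. It read 8.56, 8.39, 8.54 and 8.66 in the WT hearts and 8.91, 8.78, 8.78 and 8.42 in the SIRT1 KO hearts, so that replicates 1 to 3 of SIRT1 KO were above all WT hearts and replicate 4 was near the bottom of the WT range. The log2 fold change was 0.19 (95% confidence interval -0.07 to 0.44, limma adjusted p = 0.378), and quantile normalization brought it to -0.02. With 1 heart left out it ranged from 0.12, when SIRT1 KO replicate 1 was dropped, to 0.29, when replicate 4 of that genotype was, and it did not pass in any of these fits. The log2 fold change of its skeletal muscle relatives was -0.08 for *Mybpc2* (adjusted p = 0.64 from limma) and 0.00 for *Mybph* (adjusted p = 0.999 from limma), while *Mybpc1* was well above background on only 2 arrays and was not tested.

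**Figure D4:**
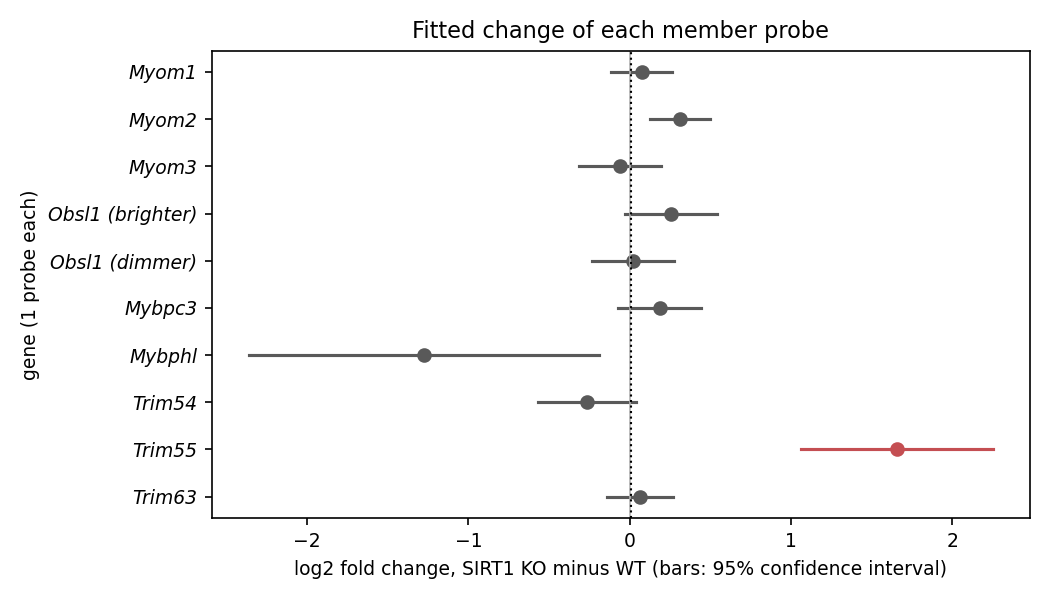
Log2 fold change of each member probe between SIRT1 KO and WT hearts (points) with its 95% confidence interval from limma (bars), the probe past the threshold in red, and a dotted line at the median of all tested probes, 0.01. The interval of *Trim55* lies wholly above 1, that of *Mybphl* reaches from -2.36 to -0.19, and those of 7 of the remaining 8 probes include 0.

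The thick filament on which these proteins sit gave 1 call. Of 11 listed genes of its core and its assembly, 9 were tested and *Smyd1*, a methyltransferase that works on myosin folding, was higher in SIRT1 KO hearts (log2 fold change 0.41, adjusted p = 0.0432 from limma), with no overlap between the genotypes. Its other probe differed by 0.34 (adjusted p = 0.0858 from limma). *Myh7*, the fetal ventricular myosin heavy chain, came next with 0.31 (adjusted p = 0.136 from limma) on its brighter probe, and its dimmer probe passed with 0.36 (adjusted p = 0.0283 from limma). The median of the 9 genes was 0.13, with 5 fitted above 0 and 4 below. The methods' analysis of variance called none of the 9 (3 at an unadjusted p under 0.05).

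Because several members also belong to skeletal muscle, and hearts can carry other tissue, marker levels of other cell types are given beside these values. Of 15 skeletal muscle markers, 11 were tested, and *Tnni2* (log2 fold change 0.62) and *Myog* (0.52) rose and *Neb* (-0.81) fell (adjusted p = 0.0225, 0.029 and 0.0062 from limma). With the methods' analysis of variance 1 of the 11 passed, and an unadjusted p under 0.05 was reached by 6 of the 11 with limma and by 5 with that test. Of the myogenic factors, *Myog* was well above background in all 8 hearts, *Myod1* in 1 heart and *Myf5* in none. *Myh2* reached that level in no heart, and the summed signal of the list was 163 to 192 in WT and 181 to 220 in SIRT1 KO hearts. Most of that sum came from *Myh8* (mean log2 signal 6.63 in WT and 6.85 in SIRT1 KO hearts) and *Myh4* (6.23 and 6.38). *Tnni2* was next, at 1.87 and 2.49. Whether the *Myh8* and *Myh4* probes read skeletal muscle transcript alone was not tested. Of 7 liver markers, 5 were tested and all were fitted higher (median log2 fold change 1.32), none past the threshold with limma or the methods' analysis of variance and none at an unadjusted p under 0.05 with either, with summed signals of 10.7 to 26.5 in WT and 12.5 to 114 in SIRT1 KO hearts. No ventricular (6 tested), endothelial (7), fibroblast and epicardial (9) or thymus (1) marker passed with limma or the methods' analysis of variance, with 0, 1, 1 and 1 of them at an unadjusted p under 0.05 with each tool. Of the 6 erythroid markers tested, *Hbb-y*, an embryonic globin, rose (0.92, adjusted p = 0.00781 from limma), and no lung marker was bright enough to be tested. The part of these tissues in the members' values was not tested.

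Outside *Trim55*, the genes whose signal ran most like a member's differed from member to member. Each gene stood here by its probe with the highest mean signal alone. Over the 8 arrays and 13537 genes, the nearest were *Carmil3* (Pearson r 0.987) and *Cpne6* (0.983) for *Myom2*, *Fam169a* (0.958) and *Vat1* (0.947) for *Myom1*, and *Agbl2* (0.940) and *Miip* (0.922) for *Myom3*. For the brighter *Obsl1* probe they were *Mycbp2* (0.978) and *Ncoa6* (0.973), for *Mybpc3* *Ccni* (0.985) and *Slc35a2* (0.983), and for *Mybphl* *Fgf12* (0.972) and *Ifi47* (0.969). For *Trim54* they were *Slc46a2* (0.916) and *Daxx* (0.913), and for *Trim63* *Cuedc2* (0.968) and *Tmod1* (0.958), the last a capping protein of the thin filament. Over all tested probes, named or not, the highest r was 0.995 for *Mybphl*, 0.990 for the brighter *Obsl1* probe and 0.988 for *Myom2*. It was 0.978 for *Trim54* and 0.946 for *Myom3*, and unchanged for *Myom1*, *Mybpc3* and *Trim63*. With 8 arrays and this many genes, values of this size are a description of these arrays.

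**Figure D5:**
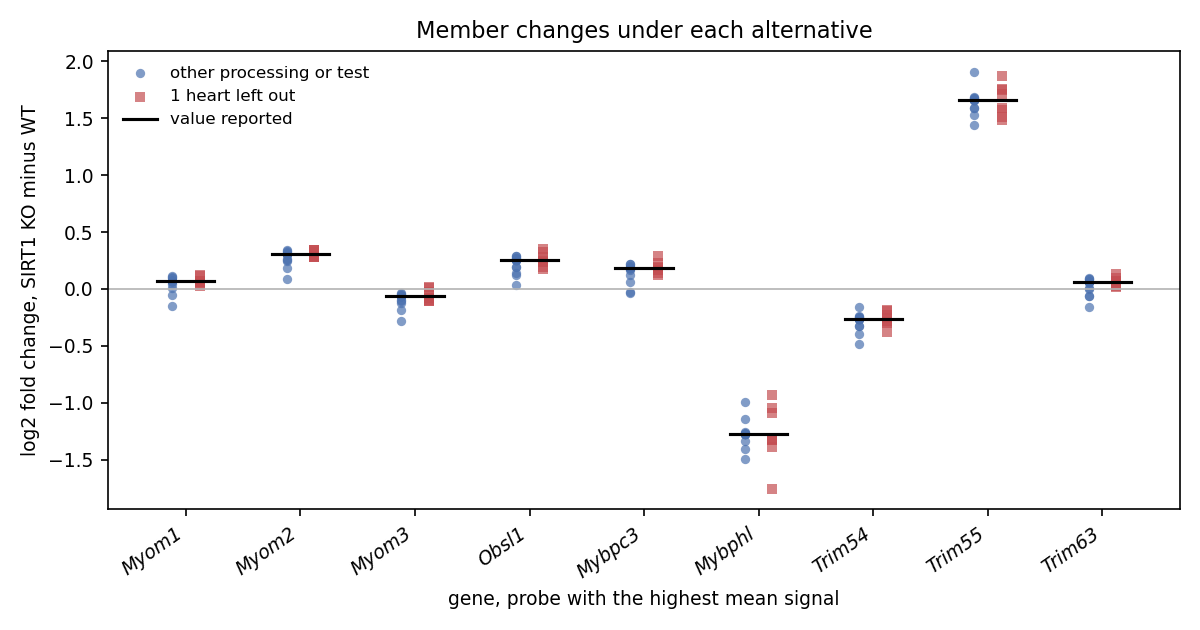
Log2 fold change of each member gene, on its probe with the highest mean signal, as reported (black bars), under other processing or tests (circles) and with 1 heart left out (squares). *Trim55* stays between 1.44 and 1.91 and *Mybphl* between -1.75 and -0.93, while *Myom1*, *Myom3*, *Mybpc3* and *Trim63* fall on both sides of 0.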

How the data were processed

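RNA from 8 E18.5 hearts (500 ng each) was hybridized to one-color Agilent arrays. The authors deposited each spot's processed intensity, background-subtracted and not scaled between arrays, from Agilent Feature Extraction (12.0.0.7 per the file headers, 12 in the submitters' processing notes, another version in the paper). Their value table equals that intensity in 100% of spots.

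Here, controls and spots marked as outliers were dropped, log2 intensity minus the array's 75th percentile over non-control spots (939 to 1033 on WT and 777 to 906 on SIRT1 KO arrays) was taken, and spots of a probe were averaged. Accessions named 28215 of 41174 probes (68.5%, 19092 genes; RefSeq, GRCm38.p6). Probes that rose well above background on 4 or more of the 8 arrays were tested with limma 3.58.1 in R 4.3.3 (lmFit, eBayes, Benjamini-Hochberg over 25624 probes), and single probes also with the exact two-sided permutation test (70 arrangements). The fit was tested on simulated data. Python 3.11.15, numpy 2.4.6, pandas 2.3.3 and matplotlib 3.10.9 did the rest.

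The text names every member probe, from each other list the genes past the threshold and the 2 with the smallest p (marker lists mainly by counts and calls), *Sirt1*, and the 2 genes most like each member. A gene with several probes is given by its probe with the highest mean signal. Members and lists were chosen from general knowledge with earlier results of these data known. The paper's test was an analysis of variance with Benjamini-Hochberg correction, computed here with genotype as its only factor. Alternatives covered background correction, scaling, filter, outlier spots, test, array weights, replicate block, probe choice and each heart left out. Normexp on the median signal (offset 50) and scaling to the cardiomyocyte markers were chosen after seeing the data. The planned normexp on the mean signal was not run, and the median signal took its place. The labels do not say that the hearts came from separate litters, and p-values measure the spread between these 8 hearts.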

Additional observations from a re-analysis of the deposited data

Results flagged for a closer look

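*Myom3* in SIRT1 KO replicate 4 stood apart from the other SIRT1 KO hearts, with a log2 signal of -2.27 against -1.97 for the nearest heart, a gap of 0.875 of the whole range of the 4 hearts. *Trim54* in WT replicate 1 stood apart from the other WT hearts, with 1.86 against 1.56 for the nearest heart, a gap of 0.903 of the range. Such gaps were looked for in 20 groups (10 probes in 2 genotypes), and chance gives about 1 in 20 groups, so 2 are close to what chance gives.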

How the results depend on the processing

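*Trim55* was higher under all 22 alternatives (log2 fold change 1.44 to 1.91) and passed the threshold under 21. *Myom2* (0.09 to 0.34), *Mybphl* (-1.75 to -0.93), *Obsl1* (0.04 to 0.35) and *Trim54* (-0.48 to -0.16) kept their direction under every alternative run. *Myom1* turned to -0.055 with median scaling and -0.15 without scaling, *Mybpc3* to -0.023 with quantile normalization and -0.034 without scaling, and *Trim63* to -0.063 with normexp, -0.063 with median scaling and -0.15 without scaling. *Myom3* ran from -0.11 to 0.019 with 1 heart left out, above 0 when WT replicate 1 (0.0051) or SIRT1 KO replicate 4 (0.019) was dropped. Median scaling and no scaling lower the log2 fold change of every member by the same amount, and took the median of all probes from 0.01 to -0.12 and to -0.21, so the turns under these 2 follow from the scaling itself. For quantile normalization, normexp and the hearts left out the cause was not tested, and none of the turned values passed the threshold.

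The number of member probes past the threshold was 1, against 0 with the methods' analysis of variance, 2 with an intensity trend, 2 with array weights and 2 with the replicate block, and 1 to 2 with 1 heart left out. Over all probes it was 1257, against 2382 with normexp, 6351 without scaling, 550 with the methods' analysis of variance and 2138 with array weights, and 660 to 1827 with 1 heart left out, the lowest being those without WT replicate 2 (663), WT replicate 3 (660), SIRT1 KO replicate 1 (732) and SIRT1 KO replicate 2 (728). Of the called probes, 81.2% were higher in SIRT1 KO, against 63.9% with quantile normalization, 38.3% with median scaling, 10.1% without scaling, 70.4% with cyclic loess and 59.0% with scaling to the cardiomyocyte markers.

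The series' description speaks of pairs of hearts, but no label says that a replicate number marks a pair. Deviations of same-numbered hearts correlated at 0.204, 0.208, 0.056 and 0.141, each heart correlating best with its own number, which is a hint from the data. With the replicate number as a block, 1187 probes passed, and *Mybphl* joined *Trim55* past the threshold (-1.27, adjusted p = 0.0446 from limma), and no other member's call changed.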
